A study of Mus musculus with 19 samples.

Results

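The genes described here are 9 genes of dopamine and cAMP signalling in the striatum: *Drd1*, *Drd2*, *Adora2a*, *Gnal*, *Adcy5*, *Ppp1r1b*, *Pde10a*, *Pde1b* and *Rgs9*. They were chosen by name, each being the row of the count table whose Ensembl identifier carries that symbol in the GENCODE M21 annotation, and they are 9 of 41128 rows and 9 of the 16841 genes tested. RNA was sequenced from the striatum (STR), prefrontal cortex (PFC) and cerebellum (CB) of SCA17 knock-in (KI) mice and wild-type (WT) mice, all 3 months of age and of the C57BL/6 strain. The striatum and the prefrontal cortex had 3 WT and 3 KI libraries each, and the cerebellum had 3 WT and 4 KI libraries. KI mice carry a germline allele of *Tbp* that encodes the TATA-box binding protein with a long polyglutamine tract, so every cell of the animal holds it. By the study's methods, EIIa-Cre recombined the allele in the germline and the line was then bred to WT mice, a cross that passes on 1 copy. Mice of both sexes were used. By *Xist* and Y-linked counts, WT striatum and WT prefrontal cortex each had 2 female libraries and 1 male. KI striatum and KI prefrontal cortex each had 1 female and 2 male. The cerebellum had 2 female and 1 male in WT, and 2 of each in KI. P values measure the spread between these libraries, which the study's methods describe as coming from 3 to 4 mice per genotype.

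Striatal projection neurons receive dopamine from the midbrain and fall into a direct pathway, which carries the D1 receptor, and an indirect pathway, which carries the D2 receptor and the adenosine A2a receptor. D1 and A2a receptors act through the olfactory G protein alpha subunit (*Gnal*) to switch on adenylyl cyclase 5 (*Adcy5*), D2 receptors oppose them, and the resulting cAMP activates protein kinase A, which phosphorylates DARPP-32 (*Ppp1r1b*), an inhibitor of protein phosphatase 1. The phosphodiesterases PDE10A and PDE1B break cyclic nucleotides down, and RGS9 shortens the signal of Gi/o-coupled receptors such as D2. Members of this group are known as genes strongly enriched in the striatum and are used as markers of its projection neurons.

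TBP binds the TATA box, and SP1, which the study examined as a partner of mutant TBP, binds GC-rich boxes, so the sequence before the transcription starts was searched for both motifs. RefSeq starts with 250 bases of upstream sequence (GRCm38.p6) were used for 6 of the 9 genes, with 10 windows in all. *Gnal* was left out of the search, and no window was matched for *Adora2a* and *Ppp1r1b*. Windows of 4 genes are printed 5′ to 3′ on the strand of the gene. These are the 3 genes with the smallest P values in the striatum and *Rgs9*, the gene whose window held the TATA motif. *Pde10a* had 2 windows and *Pde1b* had 3, and for each only the 1 window with an SP1 motif is printed. Their other windows held neither motif. Capitals mark either motif on either strand, spelled out after the sequences.
*Pde10a*, chr17:8801495-8801744, plus strand: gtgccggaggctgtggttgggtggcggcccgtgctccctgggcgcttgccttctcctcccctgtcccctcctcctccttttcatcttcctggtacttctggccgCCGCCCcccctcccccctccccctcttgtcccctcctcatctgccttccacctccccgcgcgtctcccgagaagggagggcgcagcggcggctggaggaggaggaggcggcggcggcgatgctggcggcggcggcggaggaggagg
*Adcy5*, chr16:35154614-35154863, plus strand: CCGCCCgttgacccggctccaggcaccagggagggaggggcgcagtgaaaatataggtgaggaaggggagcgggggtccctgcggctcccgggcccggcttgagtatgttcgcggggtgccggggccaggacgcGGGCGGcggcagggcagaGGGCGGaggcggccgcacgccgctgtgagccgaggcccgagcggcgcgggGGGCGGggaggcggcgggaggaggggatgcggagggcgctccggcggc
*Pde1b*, chr15:103502784-103503033, plus strand: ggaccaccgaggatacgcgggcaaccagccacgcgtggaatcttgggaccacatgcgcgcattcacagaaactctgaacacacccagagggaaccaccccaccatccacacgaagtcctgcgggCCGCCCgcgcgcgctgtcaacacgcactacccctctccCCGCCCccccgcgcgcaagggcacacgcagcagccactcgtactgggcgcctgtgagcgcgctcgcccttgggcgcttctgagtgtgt
*Rgs9*, chr11:109298182-109298431, minus strand: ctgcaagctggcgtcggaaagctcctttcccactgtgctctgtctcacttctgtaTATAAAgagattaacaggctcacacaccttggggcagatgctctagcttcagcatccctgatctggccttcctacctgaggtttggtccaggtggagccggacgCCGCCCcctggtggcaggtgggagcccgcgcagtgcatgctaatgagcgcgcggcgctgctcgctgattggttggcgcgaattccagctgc
The TATA motif, TATAAA, was found in 1 of the 10 windows (10%), in *Rgs9*, against 12.4% of the 32851 RefSeq windows of the same length. Its first base lay 195 bases before the RefSeq start. The bases that follow the *Rgs9* and *Adcy5* windows were not found in GENCODE transcripts of these genes. Those that follow the printed *Pde10a* and *Pde1b* windows were found there. The SP1 motif, GGGCGG, was found in 6 of the 10 windows (60%), at least 1 in each of the 6 genes, against 32.7% of all windows, and windows of 1 gene share their source. The *Adcy5* window held 4 copies of the SP1 motif, the largest number among these windows. Windows with the SP1 motif were 59.6% (*Rgs9*) to 78% (*Adcy5*) G and C, and those without it 44.8% to 64%. The median over all windows was 52.4%, and no share was computed for windows of like G and C content. Neither the cAMP response element TGACGTCA (1.55% of all windows) nor its shorter form TGACG, which lies within it (17.8%), was found in the 10 windows, which says only that these letters are not there.

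The 19 libraries held between 10639110 and 17431284 counts (median 15082703), the fewest in PFC KI 3. Levels are given in CPM, counts per 1000000 of the library size after TMM scaling. Replicate libraries differed by more than counting error in all 21 pairs, so none was treated as a copy of another. *Tbp* was measured at 44.4 ± 5.06 CPM (SD, n = 3) in WT and 40.8 ± 2.34 (n = 3) in KI striatum, 37.4 ± 4.4 in WT and 33.7 ± 2 in KI prefrontal cortex (n = 3 each), and 58.5 ± 5.2 (n = 3) and 52.9 ± 3.44 (n = 4) in WT and KI cerebellum. None of these *Tbp* differences passed the test (edgeR quasi-likelihood, Benjamini-Hochberg adjusted P = 0.687 to 0.921), and because the allele is a repeat expansion, counts over the whole gene do not check the genotype. A marker list for striatal projection neurons of 15 genes outside the 9 summed to 10742 to 11647 CPM in WT striatum and 809 to 1519 CPM in WT prefrontal cortex, and all 15 passed the test as higher in WT striatum than in WT prefrontal cortex and cerebellum. Libraries PFC KI 2, PFC WT 3 and PFC KI 1 held more striatal marker RNA than the other prefrontal libraries. PFC WT 3 also held more olfactory bulb marker RNA than the other prefrontal libraries, at 424.3 CPM against 6.77 to 36.5 CPM. The prefrontal values that moved most when a library was left out are therefore also given without that library.

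In WT mice, each of the 9 genes was highest in the striatum. All 9 passed the test as higher in the striatum than in the prefrontal cortex, where 14% of the tested genes did, and all 9 as higher than in the cerebellum, where 28.7% did. Against the prefrontal cortex, the log2 difference ran from 2.28 ± 0.165 (SE) for *Gnal* to 5.67 ± 0.697 for *Drd2*, or from 4.85-fold to 50.9-fold (adjusted P = 9.58e-08 and 1.13e-05, edgeR). The larger of these differences depend on PFC WT 3: without it *Drd2* was at 6.80, *Adora2a* at 6.74 in place of 5.17, *Rgs9* at 6.04 in place of 4.99 and *Drd1* at 4.91 in place of 4.30, and all 9 genes still passed the test. Against the cerebellum, it ran from 2.45 for *Gnal* to 9.20 for *Drd1*. The 3 receptors and *Rgs9* were near absent from the cerebellum, at no more than 5.04 CPM in any of its 7 libraries, whereas *Gnal* held 109.3 to 165 CPM and *Ppp1r1b* 82.5 to 160.9 CPM there. In WT mice, prefrontal libraries lay wholly above cerebellar libraries for 6 of the 9 genes (29.5% of tested genes), and the ranges overlapped for *Ppp1r1b*, *Pde10a* and *Gnal*.

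Within WT striatum, levels per kilobase of exon put *Ppp1r1b* first, at 830.1 ± 84.3 CPM per kb (SD, n = 3). *Pde1b* followed at 304.4 ± 21.5, then *Adcy5* at 152.3 ± 20.3 and *Drd1* at 146.8 ± 13.9. *Rgs9* (124 ± 7.63) and *Adora2a* (122 ± 12.2) came next, and *Drd2* (94 ± 12.5), *Pde10a* (79.3 ± 11) and *Gnal* (70.9 ± 2.65) were last. Neighbours in this order were separated without overlap only between *Ppp1r1b* and *Pde1b*, between *Pde1b* and *Adcy5*, and between *Adora2a* and *Drd2*. All exon lengths are those of the union of annotated exons, and *Ppp1r1b* shares 15.7% of its exon bases with the antisense gene *1700003D09Rik* and *Gnal* 7.63% with *Mppe1*; the use of strand in counting is not given in the sources used here.

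**Figure D1:**
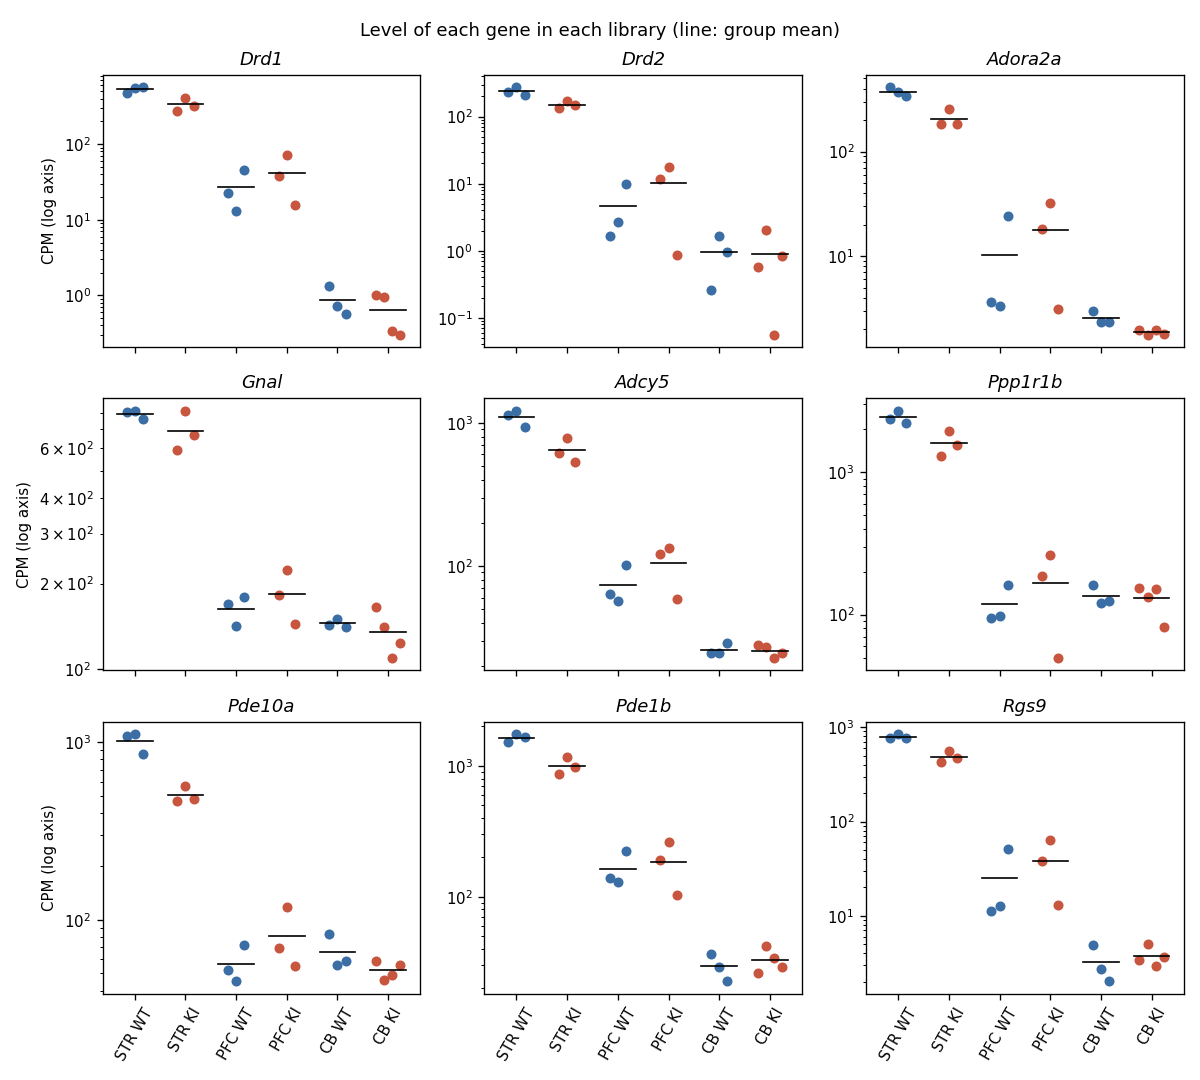
Level of each of the 9 genes in CPM (log axis, scaled separately per panel) in all 19 libraries, with WT in blue, KI in red and a line at each group mean. Striatal libraries are the highest for every gene, 8 genes have all KI striatal libraries below all WT striatal libraries, and in the prefrontal cortex the genotypes overlap in every panel.

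All 9 genes had lower values in KI than in WT striatum, and none passed the test at an adjusted P under 0.05 (edgeR quasi-likelihood test, Benjamini-Hochberg over 16841 genes), by which 0.582% of the tested genes changed. For 8 of the 9, all KI libraries lay below all WT libraries, which held for 8.46% of the tested genes, and 51.5% of tested genes had a log2 fold change under 0. The median log2 fold change of the 9 genes was -0.70, beside -0.01 over all tested genes. An unadjusted P under 0.05 was found for 3 of them, *Pde10a*, *Adcy5* and *Pde1b*, and for 4.76% of the tested genes in the lower direction. In tissue RNA, fewer projection neurons and less of a transcript per neuron cannot be told apart.

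*Pde10a*, which encodes the dual cAMP and cGMP phosphodiesterase of projection neurons, gave 1087.2, 1113.2 and 856.9 CPM in WT striatum and 469.1, 564.2 and 476.9 CPM in KI striatum. The highest KI library lay below the lowest WT library. The KI level was 0.494 of the WT level, a log2 fold change of -1.02 ± 0.229 (SE; 95% confidence interval -1.50 to -0.53), and edgeR gave it an adjusted P of 0.0542. This is just outside the threshold. DESeq2, 2 other filters on low counts and a fit of the striatal libraries alone placed it inside, with adjusted P between 0.00183 and 0.0481. It stayed outside with DESeq2 size factors in edgeR, with a replicate block within regions and with sex as a covariate. Leaving out any 1 striatal library gave edgeR adjusted P of 0.0785 to 0.263. *Pde10a* lies on chromosome 17, the chromosome of *Tbp*, with 6.51 Mb between the genes in GRCm38; whether sequence around the knock-in allele bears on its level was not tested.

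The other phosphodiesterase, *Pde1b*, which is activated by calcium and calmodulin, gave 1523.7, 1755.3 and 1648 CPM in WT striatum and 867.2, 1165.7 and 986.5 CPM in KI striatum. Its groups did not overlap, with a log2 fold change of -0.71 ± 0.271 (95% interval -1.28 to -0.13; edgeR adjusted P = 0.441). *Adcy5*, the main adenylyl cyclase of the striatum, gave 1134.5, 1216 and 932.5 CPM in WT and 615.5, 776.5 and 531.3 CPM in KI libraries. The ranges were again apart, and the log2 fold change was -0.77 ± 0.241 (95% interval -1.28 to -0.26; edgeR adjusted P = 0.267).

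Of the receptors, *Drd1*, the receptor of the direct pathway, gave 474.4, 556.4 and 566.5 CPM in WT striatum and 277, 405.6 and 322.3 CPM in KI striatum. *Drd2*, the receptor of the indirect pathway, gave 231.7, 274.5 and 212.2 CPM in WT and 132.5, 169.5 and 150.7 CPM in KI libraries. *Adora2a*, the A2a adenosine receptor of the same indirect-pathway neurons, gave 412.4, 370.5 and 337.6 CPM in WT and 182.2, 252.4 and 182 CPM in KI libraries. For each receptor the 3 KI libraries were below the 3 WT libraries. The log2 fold changes were -0.67 ± 0.399, -0.67 ± 0.543 and -0.86 ± 0.53, and none passed the test (edgeR adjusted P = 0.719, 0.826 and 0.739). Each SE rests on the spread of the gene over all 19 libraries, not on the striatal libraries alone. The ratio of *Drd1* to *Drd2* CPM was 2.05, 2.03 and 2.67 in WT and 2.09, 2.39 and 2.14 in KI striatum, so the balance of the direct-pathway and indirect-pathway receptors overlapped between genotypes.

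*Ppp1r1b*, which encodes DARPP-32, gave 2369.5, 2702.1 and 2220.1 CPM in WT and 1298, 1949.8 and 1537.6 CPM in KI striatum. *Rgs9* gave 762.3, 848.5 and 766 CPM in WT and 431.2, 559.8 and 469.7 CPM in KI striatum. Neither pair of groups overlapped, and the log2 fold changes of -0.61 ± 0.388 and -0.70 ± 0.458 did not pass the test (edgeR adjusted P = 0.751 and 0.76). *Gnal*, which carries receptor signals to the cyclase, was the exception among the 9, with 805.6, 813.7 and 758.7 CPM in WT and 589.6, 810.6 and 666.8 CPM in KI striatum. KI 2 lay inside the WT range, and the log2 fold change was -0.20 ± 0.157, with a 95% interval from -0.53 to 0.13 (edgeR adjusted P = 0.821).

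Among the KI striatal libraries, KI 2 was the highest for all 9 genes, and KI 1 or KI 3 was the lowest. Leaving out any 1 of the 6 striatal libraries kept all 9 log2 fold changes under 0, with the median between -0.83 and -0.61, and no gene passed the test in those fits.

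**Figure D2:**
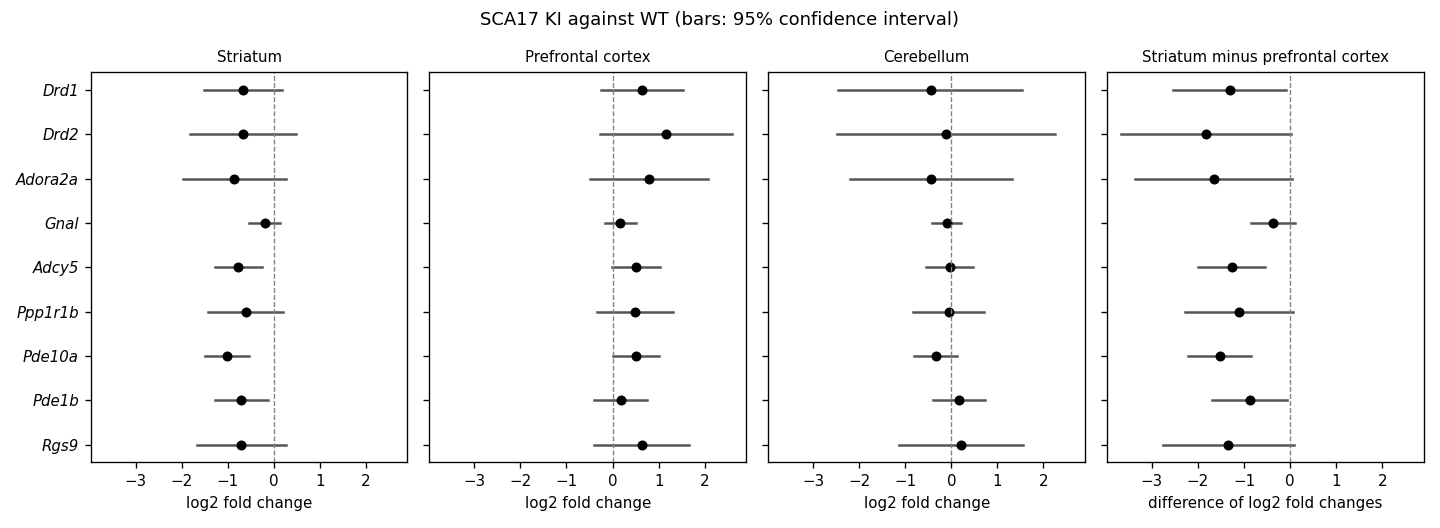
Log2 fold change of KI against WT for each gene in the 3 regions, and the difference of the striatal and prefrontal log2 fold changes (horizontal axes); points are edgeR estimates and bars their 95% confidence intervals. All striatal points lie under 0 and all prefrontal points over 0; striatal intervals exclude 0 for *Pde10a*, *Adcy5* and *Pde1b*.

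The 15 striatal projection neuron markers outside the 9 genes were also mostly lower in KI striatum. Their summed level was 11647, 11357 and 10742 CPM in WT and 6095, 8247 and 6490 CPM in KI striatum, 13 of 15 had a log2 fold change under 0, 7 of 15 had all KI libraries below all WT libraries, and 0 passed the test (median log2 fold change -0.45). Enkephalin (*Penk*), the peptide of indirect-pathway neurons, made up 32.6% of the sum in WT striatum and had a log2 fold change of -1.24 ± 0.482 (edgeR adjusted P = 0.452), while the peptide precursors of direct-pathway neurons, *Tac1* and *Pdyn*, had 0.05 ± 0.583 and -0.28 ± 0.312. None of the 3 passed the test, and the difference between them was not tested. Markers of cholinergic interneurons, *Chat*, *Slc5a7* and *Slc18a3*, summed to 84.8 to 116.2 CPM in WT and 46.1 to 61.8 CPM in KI striatum, and 0 of 3 passed the test. Markers of GABA interneurons summed to 269.5 to 356.7 CPM in WT and 233.3 to 271.2 CPM in KI striatum. These ranges overlapped, 3 of 5 markers had a log2 fold change under 0, and 0 passed the test. Oligodendrocyte markers overlapped, at 12055 to 17501 CPM in WT and 8850 to 20391 CPM in KI libraries, as did the sums of astrocyte, microglial, endothelial, choroid plexus and cortical excitatory neuron markers. All 6 cortical excitatory markers had log2 fold changes over 0 in the striatum without passing the test, with sums of 33.9, 12.3 and 223.8 CPM in WT and 151.1, 65.4 and 126.6 CPM in KI libraries. The choroid plexus sum varied from 1555 to 8979 CPM among WT striatal libraries and from 4255 to 7229 CPM among KI libraries. The part of cell composition in the lower values was not tested.

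Set against that marker sum within each library, 6 of the 9 genes overlapped between genotypes, 2 were lower in KI and 1 was higher. Over all tested genes, 0.226% had KI shares wholly below and 67.7% wholly above the WT shares, since the marker sum itself was lower in KI. *Pde10a* was 7.98% to 9.8% of the marker sum in WT and 6.84% to 7.7% in KI striatum, and *Adora2a* was 3.14% to 3.54% in WT and 2.8% to 3.06% in KI. *Gnal* was 6.92% to 7.17% in WT and 9.67% to 10.3% in KI striatum, which places it with the 67.7%. These 3 genes kept non-overlapping groups in the same directions when the mean of the log2 marker levels replaced the sum, and *Pde1b* and *Rgs9* then lay below as well (0.285% of tested genes below, 54.1% above). The 9 genes together were 75.6%, 85% and 77.3% of the marker sum in WT and 79.8%, 80.7% and 82% in KI striatum. These shares were computed after the values of the genes had been seen and carry no test.

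**Figure D3:**
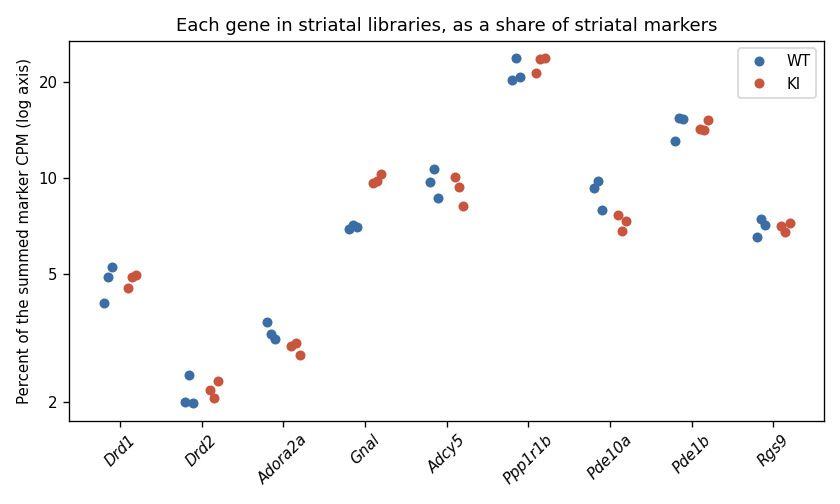
Level of each gene in the 6 striatal libraries as a percent of the summed CPM of 15 striatal projection neuron markers (log axis), WT in blue and KI in red. The genotypes are apart for *Adora2a* and *Pde10a*, lower in KI, and for *Gnal*, higher in KI, and overlap for the other 6 genes.

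In the prefrontal cortex, all 9 genes had log2 fold changes over 0, opposite to the striatum, but the libraries of the genotypes overlapped for every gene and none passed the test (edgeR adjusted P = 0.836 to 0.986). Over all tested genes, 0.107% passed the test, 50.4% had a log2 fold change over 0, and 4.38% had all KI libraries above all WT libraries. The median of the 9 log2 fold changes was 0.51, beside 0.00 over all genes. Taking both regions by sign alone, 22.4% of tested genes were lower in KI striatum and higher in KI prefrontal cortex.

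With all libraries, *Drd2* had the largest prefrontal fold change, with 1.64, 2.65 and 9.77 CPM in WT and 11.7, 18 and 0.871 CPM in KI libraries, so that the lowest value and the highest were both from KI mice. Counts were as few as 9 in KI 3. The log2 fold change was 1.15 ± 0.679 (edgeR adjusted P = 0.898). In *Adora2a*, too, the KI libraries spanned the WT libraries, with 3.63, 3.32 and 24.1 CPM in WT and 18, 32.1 and 3.1 CPM in KI libraries (log2 fold change 0.80 ± 0.608). *Drd1* overlapped without that pattern, its lowest library being WT 2, with 22.3, 13.1 and 45.4 CPM in WT and 37.8, 71.8 and 15.7 CPM in KI libraries (0.64 ± 0.424). For the receptors, the spread within each genotype was 3.47-fold to 20.7-fold. When each prefrontal library was dropped in turn, the log2 fold change ran from 0.52 (without KI 2) to 2.28 (without WT 3) for *Drd2*, from 0.09 to 2.38 for *Adora2a* and from 0.00 to 1.25 for *Drd1*, with the same 2 libraries at the ends, and the order of the receptors changed with them.

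*Rgs9* likewise ran from 11.4 to 50.8 CPM in WT and from 13.1 to 64.3 CPM in KI libraries, and its log2 fold change of 0.63 ± 0.49 became 0.05 without KI 2 and 1.69 without WT 3. *Pde10a* gave 52.5, 45 and 72.2 CPM in WT and 69, 117.9 and 54.9 CPM in KI prefrontal cortex, with a log2 fold change of 0.51 ± 0.234, the one gene of the 9 with an unadjusted P under 0.05 here (edgeR adjusted P = 0.836; 2.53% of tested genes in the higher direction). *Gnal*, *Pde1b*, *Ppp1r1b* and *Adcy5* had log2 fold changes of 0.17, 0.18, 0.49 and 0.50, with overlapping groups.

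The order of the libraries was shared by the genes. KI 2 was the highest prefrontal library for all 9 genes, and the next 2 were WT 3 and KI 1 for all 9. The same 3 libraries had the highest sums of striatal projection neuron markers, at 1657 CPM for KI 2, 1519 for WT 3 and 1107 for KI 1, against 671 to 839 CPM in the other 3. Across the 15 markers, 12 had a log2 fold change over 0 in the prefrontal cortex and 0 passed the test (median 0.20). Cortical excitatory neuron markers summed to 1958, 1621 and 1210 CPM in WT and 1844, 1749 and 1638 CPM in KI libraries, lowest in WT 3. WT 3 also held 424.3 CPM of olfactory bulb markers, against 6.77 to 36.5 CPM in the other 5 libraries. That list includes *Th*, at 171.2 CPM in WT 3. Without KI 2, the median log2 fold change of the 9 genes was 0.05, and *Pde1b*, *Gnal* and *Ppp1r1b* turned to -0.16, -0.01 and -0.00. Without WT 3 the median was 0.80, without KI 3 it was 0.92, and without KI 1 it was 0.62. The part of the dissection in these values was not tested.

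**Figure D4:**
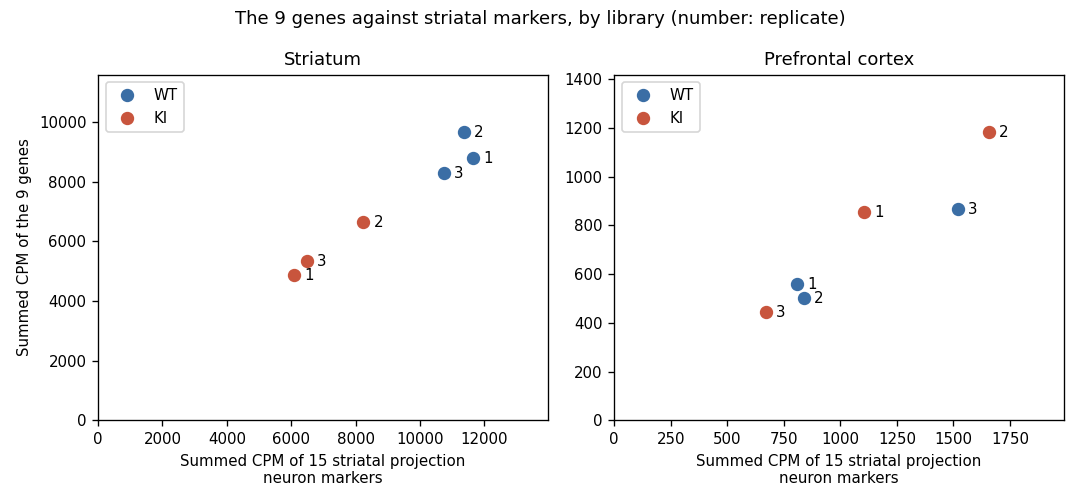
Summed CPM of the 9 genes against the summed CPM of 15 striatal projection neuron markers in each striatal (left) and prefrontal (right) library, WT in blue and KI in red, numbered by replicate; both axes start at 0 and differ between panels. In the striatum the KI libraries lie below the WT libraries on both axes, and in the prefrontal cortex KI 2, WT 3 and KI 1 have the highest sums on both axes.

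**Figure D5:**
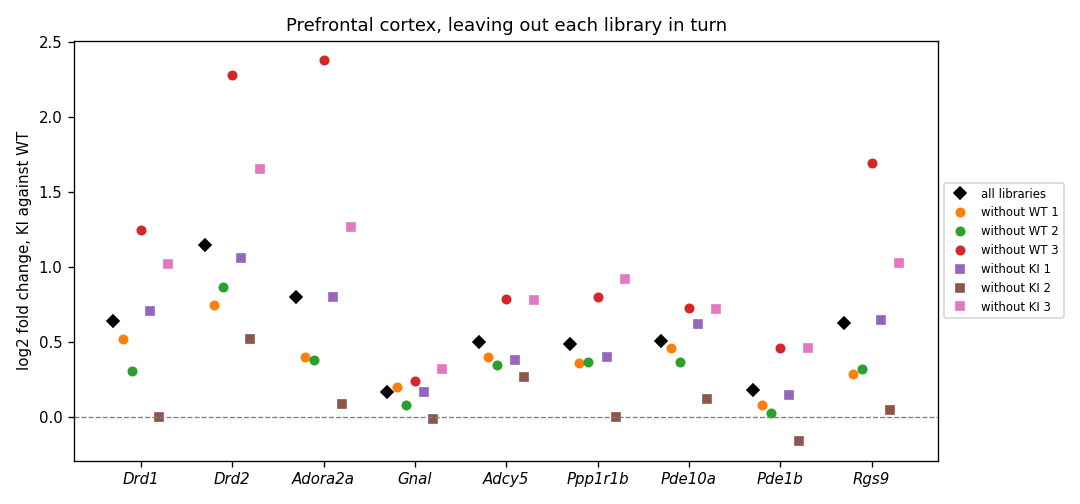
Prefrontal log2 fold change of KI against WT (vertical axis) for each gene with all libraries (diamonds) and with each library left out in turn (circles for WT, squares for KI). The values without KI 2 are the lowest for every gene, and 3 of them are under 0.

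The difference between the striatal and the prefrontal KI effect was tested directly, with the libraries taken as unpaired. It was negative for all 9 genes (50.8% of tested genes), with a median of -1.31, and none passed the test. At an adjusted P under 0.05, edgeR called 0% of the tested genes in this comparison, with 743 genes at an unadjusted P under 0.05, and DESeq2 called 12 genes. Unadjusted P values under 0.05 were found for 4 of the 9, beside 2.5% of tested genes in the lower direction. *Pde10a* had the smallest, with a difference of -1.53 ± 0.328 (edgeR adjusted P = 0.511; 95% interval -2.22 to -0.84), and it passed with DESeq2 (adjusted P = 0.00902). *Adcy5* had -1.27 ± 0.344 (edgeR adjusted P = 0.942). *Drd1* had -1.31 ± 0.582 and *Pde1b* -0.88 ± 0.385 (edgeR adjusted P = 1 for both). Without PFC KI 2 the median difference was nearer 0, at -0.75, with *Pde10a* at -1.14 and *Adcy5* at -1.04. Without PFC WT 3 it was farther from 0, at -1.75, with *Adora2a* at -3.24 and *Drd2* at -2.95.

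In the cerebellum, where the receptors and *Rgs9* were near absent, 7 of the 9 genes had log2 fold changes under 0 (48.2% of tested genes) and 2 over 0, with a median of -0.10. None passed the test, which 0.831% of tested genes did (edgeR adjusted P = 0.665 to 0.991). *Adora2a* was the one gene with groups that did not overlap (6.47% of tested genes lay wholly below), at 2.35 to 2.96 CPM in WT and 1.77 to 1.97 CPM in KI cerebellum (log2 fold change -0.45 ± 0.833).

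The rest of the pathway was described by 8 lists with 81 genes, of which 78 were tested. In the striatum, 1 of these 78 passed the test as lower in KI (0.19% of tested genes) and 0 as higher (0.392%), 54 had a log2 fold change under 0 and 24 over 0, and the median was -0.10. The gene that passed was *Arpp21*, a cAMP-regulated phosphoprotein of striatal and cortical neurons that is also a substrate of protein kinase A. It ran from 2389.4 to 2849.7 CPM in WT and from 1130.8 to 1827.2 CPM in KI striatum, and its log2 fold change was -0.88 ± 0.182 (edgeR adjusted P = 0.0325). The call was lost when any of 5 of the 6 striatal libraries was left out, all but KI 2 (edgeR adjusted P = 0.0686 to 0.215) and in the fit of the striatal libraries alone (0.147).

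Of the phosphatases, kinases and related phosphoproteins around DARPP-32, 15 of 16 had a log2 fold change under 0 in the striatum. In this list 1 gene passed the test (the phosphoprotein gene *Arpp21*), and the median was -0.23. *Ppp1ca*, a catalytic subunit of the phosphatase that DARPP-32 inhibits, had -0.33 ± 0.0981 (edgeR adjusted P = 0.239). Of the RGS proteins and RGS9 partners, 8 of 8 were under 0 and 0 passed, with a median of -0.27. *Rgs4*, which also acts on Gi/o and Gq alpha subunits, had -0.62 ± 0.188, and *Rgs7bp*, the membrane anchor of this RGS family, had -0.45 ± 0.14 (edgeR adjusted P = 0.24 and 0.267).

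The other lists were near balance in the striatum, and none of their genes passed the test. Medians were -0.01 for dopamine synthesis, transport and breakdown (3 of 6 under 0), -0.11 for the other dopamine and adenosine receptors (4 of 6), -0.02 for the other G protein subunits (7 of 13), 0.07 for the other adenylyl cyclases (4 of 8), -0.01 for protein kinase A and its anchors (7 of 11) and -0.08 for the other phosphodiesterases (6 of 10). *Gnb5*, the beta subunit that pairs with RGS9, had -0.32 ± 0.103, and *Gng3*, a neuronal gamma subunit, had 0.49 ± 0.142 (edgeR adjusted P = 0.273 and 0.202). *Drd5*, the other D1-like receptor, was scarce, at 2.09 to 2.45 CPM in WT and 0.397 to 1.42 CPM in KI striatum (log2 fold change -1.26 ± 0.541). The cyclase *Adcy8*, with 4.81 to 7.96 CPM in WT and 5.94 to 15.3 CPM in KI striatum, had 0.71 ± 0.271. For *Maoa* and *Ddc*, enzymes of dopamine breakdown and synthesis, the values were 0.14 ± 0.092 and 0.28 ± 0.236, and for *Drd4* -0.65 ± 0.712. For *Adcy7*, *Prkar2a*, *Akap9*, *Pde8b* and *Pde4a* they were 0.50, 0.30, -0.25, -0.29 and 0.14. In the prefrontal cortex, 0 of the 78 passed the test, with 36 under 0 and 42 over 0.

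Between regions in WT mice, 27 of the other 78 pathway genes were higher in the striatum than in the prefrontal cortex (14% of tested genes), 20 were lower (16.4% of tested genes) and the others did not pass the test. Against the cerebellum, 43 of the 78 were higher (28.7% of tested genes). The cyclases divided, with *Adcy1*, *Adcy2* and *Adcy8* lower in the striatum, at log2 differences of -1.80, -1.95 and -3.01, where *Adcy5* was higher by 3.89 (edgeR adjusted P = 2.96e-07, 4.56e-06, 5.65e-07 and 6.88e-08). Of the gamma subunits, *Gng7*, a partner of *Gnal*, was higher by 3.86, and *Gng3* was lower, at -1.27. Among phosphodiesterases, *Pde7b* was higher by 2.64, and *Pde4a* and *Pde4d* were lower, at -1.21 and -1.14. Of the RGS list, 7 of 8 were higher in the striatum, where 14% of tested genes were, with *Rgs8* at 1.66 and *Rgs2* at 1.70, and *Rgs7* was lower, at -0.95. *Arpp21*, *Akap5* and *Akap9* were higher by 1.88, 1.55 and 1.21, as were *Ppp1ca* by 1.22, *Gnb5* by 1.16, *Ppp2r5d* by 0.99 and *Ddc* by 0.68. *Prkar1b* was lower, at -1.37, as was *Adora1*, the A1 adenosine receptor, at -0.41. *Th* (-1.95), *Drd3* (1.71), *Drd5* (0.86) and *Maob* (0.55) did not pass the test (edgeR adjusted P = 0.134, 0.192, 0.244 and 0.0725), and 2 of these values rest on PFC WT 3. *Th* was at 171.2 CPM there, against 3.56 and 5.5 CPM in the other WT prefrontal libraries, and without that library it turned to 1.78 ± 0.535, higher in the striatum (edgeR adjusted P = 0.0204). *Drd3* had 13 counts in PFC WT 3 and 0 in the other WT prefrontal libraries, beside 10 to 16 counts in WT striatum. Without PFC WT 3 it passed the test, at 6.87 ± 1.51 (edgeR adjusted P = 0.00318), a value that rests on those 0 counts. Without PFC WT 3, the other named pathway genes kept their direction and their side of the threshold.

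Over all 19 libraries, the 5 genes outside the pathway lists whose log2 CPM most resembled the mean standardised log2 CPM of the 9 genes were *Rasgrp2* (Pearson's r 0.9960), *Ppp1r2* (0.9914), *Prkch* (0.9896), *Cd4* (0.9893) and *Mme* (0.9859). These libraries share regions, which set most of the range, and the values are given as a description. Over the 6 striatal libraries alone, the closest gene to each member had r between 0.9929 and 0.9981, namely *Mgat4b* for *Drd1*, *Cactin* for *Drd2*, *Pias1* for *Adora2a*, *Tesc* for *Gnal*, *Hvcn1* for *Adcy5*, *Sh3pxd2a* for *Ppp1r1b*, *Rps6ka5* for *Pde10a*, *Chn1* for *Pde1b* and *Cdk17* for *Rgs9*. With 6 libraries in 2 genotypes, between 75 and 157 genes had r over 0.95 with each member.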

How the data were processed

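RNA from each region was extracted with Trizol and made into full-length cDNA libraries with the SMART-Seq v4 and Nextera XT kits, which the authors sequenced on an Illumina HiSeq1000 instrument. The submitters' processing notes name bcl2fastq 2.17.1.14, STAR 2.5.2b, HTSeq, DESeq2 1.10.1 and the build GRCm38.p3; the annotation release and the use of strand are not given in the sources used here. The authors deposited whole-number counts per Ensembl gene and library, without normalization, which were used here. The authors also deposited a signal table of the same counts divided by 1 size factor per library, which served as an alternative for levels. GENCODE M21 (GRCm38) gave a name and exon length for 40254 of 41128 identifiers.

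Counts were filtered by filterByExpr over the 6 groups, scaled by TMM and fitted in edgeR 4.0.16 (R 4.3.3) with 1 mean per group over all 19 libraries and 13 residual degrees of freedom (quasi-likelihood test, Benjamini-Hochberg over 16841 genes, threshold 0.05). Similarity used log2 CPM with a prior count of 2. The step was tested on simulated counts with the same mean profile in all regions, apart from genes changed in KI striatum, and the same spread for every gene. That simulation could not check the step where levels or spread differ between regions. The study used Cuffdiff, which needs reads. Without molecular identifiers, amplified reads are not independent counts of molecules.

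The genes, lists and tests were chosen with earlier results of these data known. Named genes were the 9 in every comparison, of each list those passing the test in the striatum, in the prefrontal cortex or for the difference, or otherwise the 2 with the smallest P in the striatum, up to 3 per list between regions by adjusted P, the genes most like the 9, and *Tbp*; *Penk*, *Tac1*, *Pdyn* and other marker genes were named from the marker lists after their values were seen.

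Libraries of the striatum and prefrontal cortex with the same number were taken as pairs, but only in the replicate block across regions. The main fit did not use the pairs. Deviations from the group means correlated in all 6 pairs (0.233 to 0.368). The *Xist* and Y-linked counts gave the same sex in 6 of 6 pairs. Cerebellar numbers matched in 3 of 6 and were not taken as pairs. Alternatives were DESeq2 1.42.0, its size factors, 2 filters, the compared groups alone, replicate blocks, sex, read from *Xist* and Y-linked counts, as a covariate, and each library left out.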

Additional observations from a re-analysis of the deposited data

How the results depend on the processing

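The number of the 9 genes passing the test for KI against WT in the striatum was 0 and became 1 with DESeq2, with every gene of at least 1 count, with at least 10 counts in every library (*Drd1* and *Drd2* then drop out) and with the compared groups alone; the gene was *Pde10a* each time, with adjusted P of 0.00183, 0.0321, 0.0481 and 0.0316 against 0.0542. For the difference between the striatal and prefrontal effects the number went from 0 to 1 with DESeq2, again *Pde10a*. Leaving out each library in turn gave 0 of the 9 passing for KI against WT in all 3 regions and for the difference, and 9 of 9 in both WT regional comparisons. Without PFC KI replicate 2, the prefrontal log2 fold changes of *Ppp1r1b*, *Pde1b* and *Gnal* reversed to -0.00, -0.16 and -0.01, the lowest of ranges that reached 0.92, 0.46 and 0.32 with other libraries left out; the medians of the 9 genes ran from 0.05 to 0.92 over the prefrontal fits and from -1.75 to -0.75 for the difference. In WT mice, *Th* turned from -1.95 to 1.78 and *Drd3* went from 1.71 to 6.87 (striatum against prefrontal cortex) without PFC WT replicate 3. Over all tested genes, calls in the striatum rose from 32 lower and 66 higher to 102 and 112 with DESeq2 and ran from 36 to 121 with 1 library left out, and with the compared groups alone they fell to 15 and 31. DESeq2 took prefrontal calls from 3 lower and 15 higher to 19 and 33, cerebellar calls from 53 and 87 to 161 and 175, and calls for the difference from 0 to 10 lower and 2 higher; the prefrontal groups alone gave 0 by edgeR (571 genes at an unadjusted P under 0.05), and leaving out 1 library gave 5 to 16 there and 73 to 151 in the cerebellum. The cause of these changes was not tested. With the replicate block across regions, which pairs striatum and prefrontal cortex, the difference kept 0 of 9 genes passing (median -1.25) and WT striatum against prefrontal cortex kept 9 of 9 (median 4.39); in a fit of these 2 regions alone, added after seeing the data, it was 0 of 9 (median -1.26). The replicate block within regions, where KI and WT share only a number, gave 0 of 9 in every region. So did DESeq2 size factors in edgeR and sex as a covariate. The block across regions was not run for KI against WT, nor the block within regions for WT regions. With 3 or 4 libraries per group, the 95% intervals of 6 of the 9 striatal log2 fold changes include 0. The spread of each gene was estimated over all 19 libraries, so these intervals also carry prefrontal and cerebellar spread. For *Drd2*, the highest library was 1.29 times the lowest in WT and 1.28 times in KI striatum. In KI prefrontal cortex and KI cerebellum it was 20.7 and 36.6 times the lowest.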
